A study of Drosophila melanogaster with 7 samples.

Results

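Origin calls from S2 cells labelled with a rising dose of BrdU were set against origin calls from S2 cells labelled with a long EdU pulse and a long BrdU pulse. Members were all origin calls of the gradient library and of long-pulse replicates 1 and 2 on X, 4 and both arms of chromosomes 2 and 3. They numbered 2687 of the 3042 origin calls in the series, with 1519 from the gradient library, 485 from long-pulse replicate 1 and 683 from long-pulse replicate 2. S2 is a cell line derived from Drosophila melanogaster embryos, and none of these cells received a drug other than the labels. In the gradient library BrdU was raised in 24 steps of 0.5 µM, each lasting 2.5 min, to 12 µM over 1 hr, and the cells then stayed at that dose for 30 min. In the long-pulse libraries cells took up 10 µM EdU for 7 min and then 10 µM BrdU for 15 min, followed by a thymidine chase. Each library came from a pair of flasks that were combined. A control library of 97 origin calls, labelled like the long-pulse replicates but carrying another batch label and sequenced on a MinION in place of a PromethION, was read beside them. The gradient had 1 library, so its values have no replicate spread, and the labels do not say that the long-pulse replicates were separate cultures.

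Replication starts at origins, where the origin recognition complex loads the Mcm helicase before S phase and a part of the loaded helicases fires during it. A fired origin sends out a pair of forks that copy DNA in opposite directions. In a pulse experiment an origin is called on a single DNA molecule where a leftward and a rightward track diverge, and the interval between the tracks is the call. In a gradient, the BrdU content of the new DNA follows the time at which it was made, so the content rises on both sides of an origin. How the gradient calls were derived is unknown here, and their intervals need not mean the same as those of the pulse calls.

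Libraries are the units of comparison below. With 1 gradient library against 2 long-pulse libraries an exact two-sided permutation test has a smallest p of 0.333, so no difference can pass a threshold of 0.05. Each value is therefore given beside both replicates, and the control is given where it bears on the comparison. The gradient and the long pulses also carry different batch labels, so that labelling scheme, batch and calling method cannot be told apart. All intervals for shares are 95% Wilson intervals. They cover counting error only and treat calls as independent, although calls on one molecule share their source.

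Gradient calls were narrow, and more of them lay on the same molecule. The gradient library gave 1519 calls on 1020 molecules, 1.49 calls per molecule, against 1.02 in each long-pulse replicate and 1.04 in the control. In the gradient 277 molecules held more than 1 call, with up to 7 calls on one molecule, and 51.1% of its calls lay on such molecules. The share was 3.30% and 4.54% in long-pulse replicates 1 and 2 and 8.25% in the control, all far below the gradient (difference from the mean of the replicates 47.2 percentage points, against an SD of 0.877 between them, n = 2; exact permutation p = 0.333, the smallest possible). No read name occurred in more than one of the libraries (0 names). Read coordinates were not given for the gradient, so the length of molecule behind each call is unknown there.

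The median call was 2.19 kb wide in the gradient, 11.9 kb in long-pulse replicate 1, 6.81 kb in replicate 2 and 12.4 kb in the control. The gradient lay below all of them, with a difference of -7.15 kb from the mean of the replicates, whose SD was 3.58 kb (n = 2; exact permutation p = 0.667). On molecules with 1 call alone the medians were 4.59 kb in the gradient and 12.5 and 6.97 kb in replicates 1 and 2. Wide calls were less frequent in the gradient. Calls over 20 kb made up 11.8% of the gradient (180 calls, interval 10.3 to 13.6%), 40.4% of replicate 1 (36.1 to 44.8%), 32.1% of replicate 2 (28.7 to 35.7%) and 40.2% of the control (31.0 to 50.2%). The difference from the replicates was -24.4 percentage points (SD between replicates 5.90, n = 2; exact permutation p = 0.333, the smallest possible). The widest call measured 145 kb in the gradient and 168 and 162 kb in replicates 1 and 2, so the upper ends overlapped.

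At the narrow end the libraries differed in kind. Zero-width calls made up 37.3% of replicate 1 (181 calls), 44.1% of replicate 2 (301 calls) and 42.3% of the control (41 calls), and the next wider call in these libraries measured 3257, 3020 and 3498 bp. The gradient held 0 zero-width calls of 1519 (interval 0 to 0.252%). In their place it held 461 calls of 1 to 10 bp, 30.3% of its calls (28.1 to 32.7%), of which 151 were 1 bp wide. Only 24 of its calls measured 11 to 100 bp, 0 measured over 100 and up to 500 bp, and 61 measured over 500 bp and up to 1 kb. Both methods thus gave a group of calls at or near a point and a separate group of wide calls. With calls up to 10 bp set aside, the median of the remaining 1058 gradient calls was 4.83 kb, against 28.2 kb for 304 calls of replicate 1 and 24.5 kb for 382 calls of replicate 2, with 29.7 kb for 56 calls of the control (difference -21.5 kb, SD between replicates 2.66 kb, n = 2; exact permutation p = 0.333). The share of calls up to 5 kb wide was 65.6% in the gradient and 40.0% and 47.6% in replicates 1 and 2. With a limit of 1 kb the direction turned, and the difference was -4.75 percentage points.

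**Figure D1:**
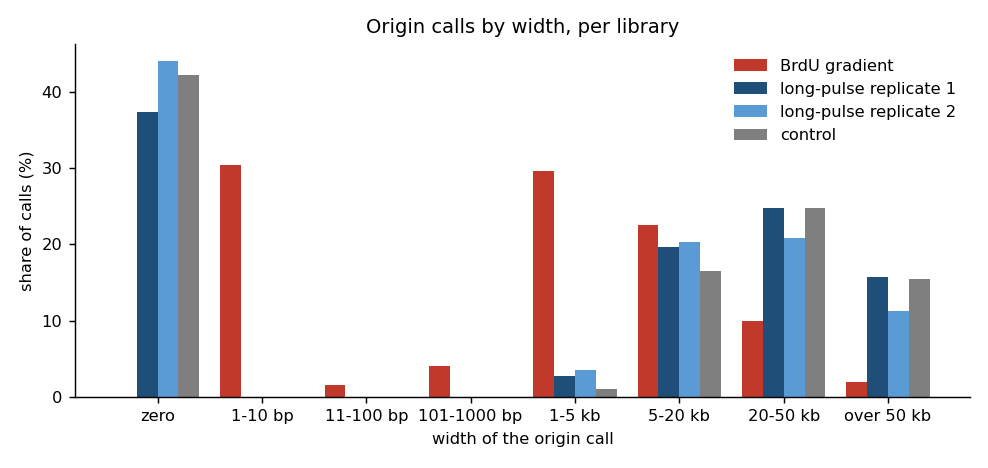
Share of origin calls in percent by width of the call, one bar per library. The long-pulse replicates and the control have a bar at zero width (37.3 to 44.1%) and few calls between it and 5 kb, while the gradient has 30.3% of its calls at 1 to 10 bp and 29.6% at 1 to 5 kb.

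The arms took similar shares of the calls in both schemes, with the X the arm on which the long-pulse replicates themselves differed most by ratio among the 5 large arms. On 2L the gradient had 319 calls (21%), replicate 1 had 98 (20.2%) and replicate 2 had 135 (19.8%). On 2R the gradient share of 20.9% lay between the 17.7% and 22.8% of the replicates. On 3L the shares were 20.2% in the gradient and 20.4% and 23.1% in the replicates, and on 3R they were 25.0%, 27.6% and 25.5%. The differences from the mean of the replicates were 1.01, 0.649, -1.56 and -1.60 percentage points. The direction turned on 2L with calls up to 5 kb wide (-0.473 points), on 2R with the first call of each molecule (-0.690 points) and on 3L with the control added (0.197 points), so none is given for these arms. The control's shares of 26.8% on 2R and 16.5% on 3L lay outside the range of the replicates, and its shares of 19.6% on 2L and 28.9% on 3R did too. With exact permutation over libraries p was 0.333, 1.00, 0.667 and 0.667 in the order given.

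S2 cells are of male origin, and the X carried fewer calls per Mb than each of the 4 large autosomal arms in every library. The gradient had 189 calls on X, or 8.03 per Mb (interval 6.93 to 9.26, exact Poisson), against 10.96 to 13.62 per Mb on the 4 large autosomal arms. Its X share was 12.4% (10.9 to 14.2%), next to 12.2% in replicate 1 (9.55 to 15.4%), 7.76% in replicate 2 (5.98 to 10.0%) and 7.22% in the control (3.54 to 14.2%). X makes up 17.6% of the arm length. The gradient share was within the interval of replicate 1 and above that of replicate 2, and the difference from their mean, 2.48 percentage points, was smaller than their SD of 3.11 (n = 2; exact permutation p = 0.667). Forks on X, a measure of labelled reads, made up 10.6% and 10.4% of the forks of replicates 1 and 2, a smaller difference than that in origin calls. No forks were analysed here for the gradient.

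Chromosome 4, a small and largely heterochromatic chromosome, held 7 gradient calls on 5 molecules, 9 calls of replicate 1 and 7 calls of replicate 2. As a share this was 0.461% in the gradient (0.223 to 0.948%), 1.86% in replicate 1 (0.979 to 3.49%) and 1.02% in replicate 2 (0.497 to 2.10%), with 1 call in the control. The intervals of the gradient and of replicate 2 overlap, and the difference from the mean of the replicates, -0.979 percentage points, was 1.67 times their SD (exact permutation p = 0.667).

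**Figure D2:**
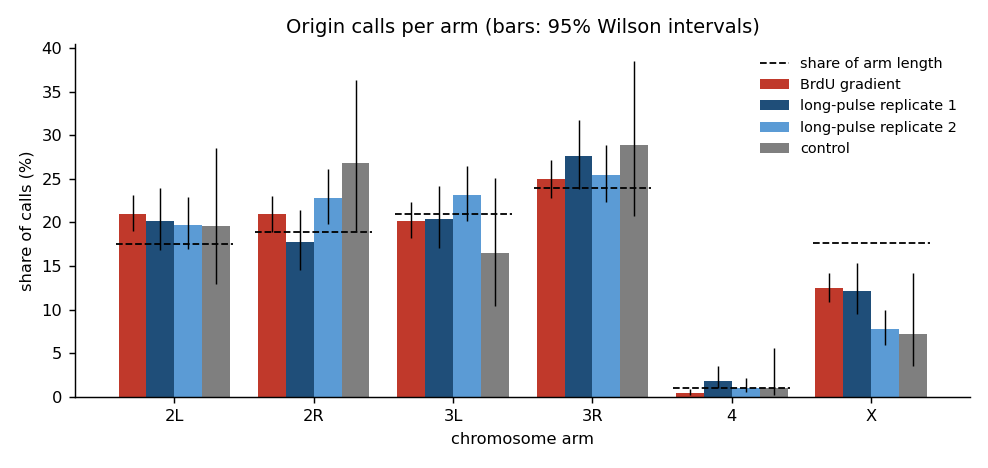
Share of origin calls in percent on each chromosome arm, one bar per library with 95% Wilson intervals, and the share of total arm length as a dashed line. The X lies below its share of length in every library, at 12.4% in the gradient and 12.2 and 7.76% in long-pulse replicates 1 and 2.

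Along the arms, gradient counts followed the long-pulse counts less closely than the long-pulse replicates followed each other. In 1339 windows of 100 kb the Pearson correlation of counts was 0.15 between the replicates (Spearman 0.13), 0.056 between the gradient and replicate 1 (Spearman 0.069) and -0.039 between the gradient and replicate 2 (Spearman -0.032). With 138 windows of 1 Mb the values were 0.38 between the replicates (Spearman 0.37) and 0.22 and 0.21 between the gradient and replicates 1 and 2 (Spearman 0.20 and 0.23). The control, with 97 calls, had 1 Mb correlations of 0.22 and 0.18 with the replicates and 0.15 with the gradient. These are descriptions over windows, which share library, coverage and copy number, and carry no p. The median 100 kb window held 1 gradient call and 0 calls of either replicate, and the mean was 1.13 calls in the gradient, 0.362 in replicate 1 and 0.510 in replicate 2.

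Windows with a gradient call numbered 716 of the 1339 windows of 100 kb, against 377 and 504 for replicates 1 and 2. The 221 windows shared by the gradient and replicate 1 made up 30.9% of the former's windows and 58.6% of the latter's. The 259 shared with replicate 2 made up 36.2% and 51.4%. Of all windows, 53.5% held a gradient call, to be set beside the 58.6% and 51.4%, while 28.2% and 37.6% held a call of replicates 1 and 2, to be set beside the 30.9% and 36.2%. The 175 windows shared by the replicates made up 46.4% of the windows of replicate 1 and 34.7% of the windows of replicate 2, against 37.6% and 28.2% of all windows with a call of replicate 2 and of replicate 1.

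Counts of gradient calls were uneven over the 100 kb windows. The variance of the counts was 2.18 times their mean in the gradient, against 1.19 and 1.20 in replicates 1 and 2. When each molecule counted once per window the ratio was 1.14 in the gradient and 1.17 and 1.15 in the replicates.

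The distance from a call to the nearest long-pulse call gave the same order. Within 5 kb of a call of replicate 1 lay 4.41% of gradient calls (67 calls, 3.49 to 5.56%), 10.98% of replicate 2 calls (8.85 to 13.5%) and 14.4% of control calls (8.80 to 22.8%). For replicate 2 as the target the shares were 4.21% of gradient calls (3.31 to 5.34%), 16.3% of replicate 1 calls (13.3 to 19.8%) and 10.3% of control calls (5.70 to 17.9%). Gradient calls were thus less often close to a long-pulse call than calls of the other long-pulse replicate were, with a difference of -9.32 percentage points on average over both targets (SD 3.89, n = 2 targets). With calls up to 5 kb wide alone the difference was -4.64 points, and with interval starts in place of midpoints -3.80 points. The share of arm bases within 5 kb of a long-pulse call was not computed. Whether the gradient shares exceed those of calls placed at random is therefore not known here. Taken the other way, 11.1% of replicate 1 calls (8.63 to 14.2%) lay within 5 kb of one of the 1519 gradient calls, while 16.3% lay within 5 kb of one of the 683 calls of replicate 2. For replicate 2 the shares were 8.93% (7.02 to 11.3%) near a gradient call and 10.98% (8.85 to 13.5%) near one of the 485 calls of replicate 1, with intervals that overlap.

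Narrow calls of all 3 libraries were then compared by place. Of 996 gradient calls up to 5 kb wide, 1 lay within 5 kb of a call up to 5 kb wide of each replicate, and 2 lay within 10 kb. The counts that random placement would give were not computed, so these are read neither as few nor as many. The closest was a 3 bp gradient call at 2L 2186348 to 2186350, with zero-width calls 1.66 kb away in replicate 1 and 2.61 kb away in replicate 2. It lay 3.56 kb outside CG10874. The next was a call of 0.953 kb at 3R 13967860 to 13968812 inside rdx, which encodes an adaptor of a ubiquitin ligase, with zero-width calls at 7.43 and 1.31 kb. Orc2, a subunit of the origin recognition complex, ends nearby on the same arm, at 3R 13967075. The third lay on 2L near CG40439 at 12.2 and 10.1 kb, and the others in the set of 8, near or inside grim, an activator of apoptosis, gce, a juvenile hormone receptor, fabp, a fatty acid binding protein, CG17378 and CG31835, had at least one replicate over 13 kb away.

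Windows of 1 Mb were then searched for places where the schemes differed. Of 124 windows with at least 10 calls over the 3 libraries, the gradient was at least 2-fold above both long-pulse replicates per 1000 calls in 10 (8.06%) and at least 2-fold below both in 9 (7.26%). Between the replicates themselves, replicate 1 was at least 2-fold above replicate 2 in 17 windows (13.7%) and replicate 2 above replicate 1 in 24 (19.4%). Against single replicates, the gradient was at least 2-fold above in 21% and 19.4% of windows and below in 15.3% and 14.5%, near the shares between replicates. The windows named next are given as values with no test. On simulated calls the 2-fold rule, run there without the minimum of 10 calls, missed small excesses and called windows that had none. Simulated calls were placed singly, so they do not show how often the rule errs where calls share a molecule.

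Windows in which the gradient was above included several gene-poor ones. Of the 10, 5 held at most 13 protein-coding genes, against 13 of all 124 windows tested, while the 9 in which it was below held 60 to 163 genes. The median was 37 genes in the former, 122 in the latter and 109.5 over the windows tested. A window above could reach the minimum of 10 calls on gradient calls alone, while a window below had to hold a call of each replicate. These gene numbers therefore describe the windows and are no test of gene density. The limit of 13 genes is the gene number of one of these 5 windows, so it was not set independently of them. At the proximal end of X, with ATbp as the nearest gene to the median call at 267 kb, the gradient had 10 calls and the replicates 0 each. This window, with 13 genes, ended at 23538283 and was shorter than 1 Mb. The adjacent window, X 22000001 to 23000000, had too few calls to be tested and held 9 gradient calls and 0 of each replicate. The last calls on X ended at 20.9 Mb in replicate 1 and 21.7 Mb in replicate 2, so these zeros were not particular to the ATbp window. At 3R 2000001 to 3000000, around Pzl, a gene of the Piezo-like channel family, the gradient had 16 calls and replicates 1 and 2 had 0 and 1, which is 10.5 calls per 1000 (6.02 to 17.1) against 0 and 1.46. The next window of 3R, near spok, an enzyme of ecdysone synthesis, had 23 gradient calls against 3 and 1. The window before Pzl, inside Myo81F, a very long heterochromatic myosin gene, had 20 gradient calls against 3 and 1 and was named after its values were seen. The control had 3 of its 97 calls in the Myo81F window, or 30.9 per 1000, which is above the 13.2 per 1000 of the gradient. Counting the first call of each molecule alone, the windows of Myo81F and spok no longer passed 2-fold.

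Windows with 61 to 135 genes were also among those above. The window near Irk2, a potassium channel gene, on 3R had 135 genes and 15 gradient calls against 1 and 3, with 0 in the control. It was named after its values were seen, and it passed 2-fold under each of the 7 alternatives run on single windows. Those that left out a replicate could not undo a pass, since a listed window had passed against both. The window of CG5973 on 2L held 21 gradient calls against 2 and 1, but no longer passed with 1 call per molecule. The window of Spg7, a mitochondrial protease, on X had 10 against 1 and 1. The window near AdipoR, a receptor of the adiponectin receptor family, on 3R had 17 against 2 and 3, and that of BicD, an adaptor of the dynein motor, on 2L had 16 against 2 and 3. The control had 1 call in each of the windows of Spg7, AdipoR and BicD, or 10.3 per 1000, and with it added these 3 windows no longer passed 2-fold. The AdipoR window was also lost with 1 call per molecule.

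Where the gradient was below, the difference was in calls per 1000, and in some windows its count was as high as that of a replicate. The window of eIF1A, a translation initiation factor, on 3R held 5 gradient calls against 7 and 10, or 3.29 per 1000 (1.07 to 7.68) against 14.4 (5.80 to 29.7) and 14.6 (7.02 to 26.9). The window of CG31391 on 3R held 3 against 5 and 6, and that of ru, a rhomboid protease of EGF signalling, on 3L 5 against 6 and 12. CG46244 on 2L stood at 6 against 7 and 9, Dmtn on 3R at 5 against 4 and 7, and MFS9 on 3R at 4 against 3 and 8. Drp1, a factor of mitochondrial fission, on 2L had 7 gradient calls in its window against 6 and 7 in the replicates, which is 4.61 per 1000 against 12.4 and 10.2. With 1 call per molecule the windows of Dmtn, MFS9 and Drp1 no longer passed 2-fold, and with the control added those of Dmtn and Drp1 did not. The control held 0 calls in the windows of Dmtn and Drp1. A window below had to hold a call of each library compared, so neither could pass with the control added. With calls up to 5 kb wide the window of CG46244 no longer passed, and neither did those of AdipoR and BicD. A window on chromosome 4, near Ephrin, was also lost with calls up to 5 kb wide. It held 5 gradient calls against 7 and 5, or 3.29 per 1000 against 14.4 and 7.32, and was named after its values were seen.

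**Figure D3:**
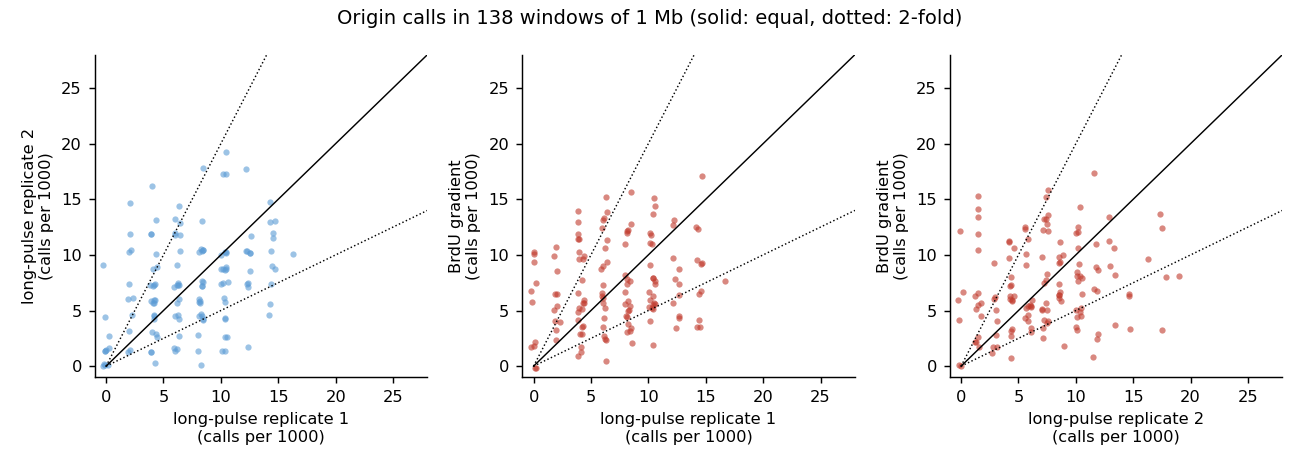
Origin calls per 1000 calls in 138 windows of 1 Mb, each point a window with a small random offset to separate equal values, for replicate 2 against replicate 1 and for the gradient against each replicate. The solid line marks equal rates and the dotted lines 2-fold differences. Points scatter widely in all 3 panels, with Pearson correlations of 0.38, 0.22 and 0.21.

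Windows with most calls differed between the schemes. Ranked by molecules, the 1 Mb windows with most gradient calls off 2R lay around Fas3, a cell adhesion gene, on 2L with 24 calls on 18 molecules (4 and 5 calls in the replicates), near RpL5 at the proximal end of 2L with 21 calls on 17 molecules (5 and 12), near mIF2 on 3R with 21 on 16 (3 and 5), near CG7567 on 3R with 19 on 16 (7 and 7) and around C15, a homeobox gene, on 3R with 20 on 14 (6 and 5). Among 100 kb windows off 2R, 3L 26900001 to 27000000 held calls on the most molecules, with 8 calls on 7 molecules and 0 in either replicate. It held 0 protein-coding genes, and the median call was 138 kb from CG40228. Of the 8 windows that lead by molecules off 2R, 6 held at most 2 genes, as did 18.6% of all 1339 windows. A gene was counted in the window that held its midpoint, so the window inside Myo81F counted 0 genes. Ranked by calls the picture was less one-sided. Of 9 windows with at least 8 gradient calls, 2R included, 4 held at most 2 genes, and the highest count, 11 calls, was in windows with 8 and 13 genes. The 8 windows included 2L 12500001 to 12600000 near bun, a gene of the TSC-22 family, with 7 gradient calls and 0 in both replicates, windows near CG40006 and Spf45, a splicing factor, at the proximal end of 2L, one near mRpS5 on 3L, and one inside Myo81F with 8 calls on 4 molecules. The other pair lay around santa-maria, a scavenger receptor gene, on 2L with 10 calls on 4 molecules and CG5151 on 3L with 7 calls on 4 molecules.

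The 8 leading 100 kb windows of the long pulses held 1 to 31 genes. They lay near spel1, a mismatch repair gene, on 2L with 4 and 2 calls in replicates 1 and 2, around tral, an RNA-binding protein gene, on 3L with 2 and 4, around Tgs1, which makes the trimethylguanosine cap of small nuclear RNAs, on 3R with 1 and 5, around fmt on 3L with 1 and 5, around CG17378 on 2L with 2 and 3, around sick on 2L with 1 and 4, near CG40439 on 2L with 2 and 3 and near l(3)80Fj on 3L with 4 and 1. The gradient had 0 calls in the windows of spel1, tral and Tgs1, 2 in that of fmt, 1 each in those of CG17378, sick and l(3)80Fj, and 5 in that of CG40439. This last window, at 2L 22700001 to 22800000, was among the leading 8 of both schemes, and held 5 gradient calls on 5 molecules. Such counts are small, and a window was ranked by the same counts that are printed.

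Gradient and long-pulse calls differed in how often they lay near genes' ends. Midpoints at most 1 kb from either end of a protein-coding gene span made up 23.8% of gradient calls (361 calls, 21.7 to 26.0%), 43.1% of replicate 1 (209 calls, 38.8 to 47.5%), 42.9% of replicate 2 (293 calls, 39.2 to 46.6%) and 48.5% of the control (47 calls, 38.8 to 58.3%). The arm bases within that distance are 24.6% of all, and midpoints of forks lay there in 24.6% and 24.8% of forks of replicates 1 and 2. The gradient was thus at the level of arm bases and forks, and all 3 pulse libraries were above it. The difference between gradient and replicates was -19.2 percentage points, against an SD of 0.137 between the replicates (n = 2; exact permutation p = 0.333, the smallest possible). With interval starts in place of midpoints it was -11.0 points. The median distance to a gene end was 4.66 kb in the gradient and 1.42 and 1.37 kb in the replicates. A start site and a stop end cannot be told apart, since the gene table used here gives no strand.

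The difference was present in every width class with over 50 calls a library. Among calls up to 10 bp wide 21.7% of 461 gradient calls lay near a gene end (18.2 to 25.7%), against 39.8% of 181 zero-width calls of replicate 1 (32.9 to 47.1%) and 40.9% of 301 of replicate 2 (35.5 to 46.5%). Between 5 and 20 kb the shares were 28.3% (23.8 to 33.3%) in the gradient and 46.3% and 46.0% in the replicates. Over 20 kb they were 26.7% (20.7 to 33.6%) in the gradient and 45.4% and 43.4% in the replicates. Molecules with 1 gradient call gave 22.5% and those with several 25.0%.

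On the large arms the order was the same. Near gene ends lay 27.9% of gradient calls on 2L and 18.0% on X, the highest and lowest of these arms, while the replicates ranged from 32.2% for replicate 1 on X to 50.0% for replicate 1 on 2L. The arm bases near gene ends were 26.2% on 2L and 23.4% on X, so the gradient was above that share on 2L and below it on X. On chromosome 4, 0 of 7 gradient calls lay near a gene end, against 5 of 9 and 4 of 7 in the replicates.

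Intergenic DNA, outside every protein-coding gene span, held 35.7% of gradient calls (33.4 to 38.2%), 37.1% and 36.7% of the calls of replicates 1 and 2 and 30.9% of those of the control, with 32.7% of arm bases in this class. The difference between gradient and replicates was -1.18 percentage points (exact permutation p = 0.333) and turned to 0.470 points with the first call of each molecule and to 0.817 points with the control added, so no direction is given.

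Gene-poor stretches held more of the gradient calls. This grouping was chosen after the data were seen. The 100 kb windows were divided into 4 classes by their number of protein-coding genes, each gene counted where its midpoint lay. Windows inside a very long gene can thus fall in the lowest class. The 360 windows with 0 to 4 genes, 26.7% of arm bases, held 31.7% of gradient calls (481 calls on 328 molecules, 29.4 to 34.0%), 20.4% of replicate 1 (99 calls, 17.1 to 24.2%), 20.1% of replicate 2 (137 calls, 17.2 to 23.2%) and 16.5% of the control (16 calls, 10.4 to 25.1%). They held 23.0% and 23.7% of the forks of replicates 1 and 2. The gradient was above the replicates by 11.4 percentage points (SD between replicates 0.250, n = 2; exact permutation p = 0.333, the smallest possible).

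The densest class, 332 windows with 16 to 71 genes and 24.9% of arm bases, held 23.5% of gradient calls (21.4 to 25.7%), 32.6% of replicate 1 (28.6 to 36.9%), 33.5% of replicate 2 (30.1 to 37.2%) and 29.9% of the control (21.7 to 39.6%). Forks of the replicates lay there in 26.9% and 26.3% of cases. The gradient was 9.55 percentage points below the replicates (SD 0.673, n = 2; exact permutation p = 0.333). The middle classes differed less, with 23.6% and 21.3% of gradient calls against 23.1% and 23.9% in replicate 1. Reads of the gradient library could not be counted by class, so coverage and origin calls cannot be told apart in it.

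**Figure D4:**
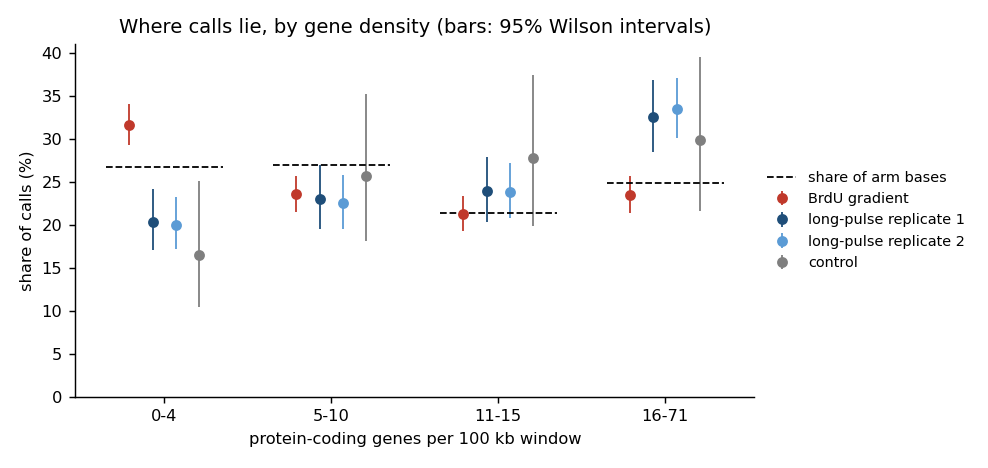
Share of origin calls in percent in 100 kb windows grouped by their number of protein-coding genes, with 95% Wilson intervals and the share of arm bases as a dashed line. The gradient is highest in windows with 0 to 4 genes (31.7%), and the long-pulse replicates are highest in windows with 16 to 71 genes (32.6 and 33.5%).

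Within classes of gene density, the gradient had a lower share of calls near gene ends than both replicates in all 4. In the class with 0 to 4 genes its interval overlapped that of replicate 2. The intervals take calls as units, so they do not test a difference between labelling schemes. In windows with 0 to 4 genes 6.03% of gradient calls were near a gene end (4.23 to 8.52%), against 16.2% in replicate 1 (10.2 to 24.7%) and 9.49% in replicate 2 (5.63 to 15.6%), with 5.56% of bases. The control, with 1 of 16 calls or 6.25% (1.11 to 28.3%), was at the level of the gradient there. With 5 to 10 genes the shares were 19.8% (16.0 to 24.3%), 34.8% (26.6 to 44.0%) and 37.7% (30.4 to 45.5%), with 20.4% of bases. With 11 to 15 genes they were 31.0% (26.2 to 36.2%), 49.1% (40.2 to 58.1%) and 49.1% (41.5 to 56.7%), with 31.2% of bases. With 16 to 71 genes they were 45.1% (40.0 to 50.3%), 61.4% (53.6 to 68.6%) and 62.0% (55.6 to 68.0%), with 43.9% of bases. The gradient interval held the base share in each of the 4 classes.

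**Figure D5:**
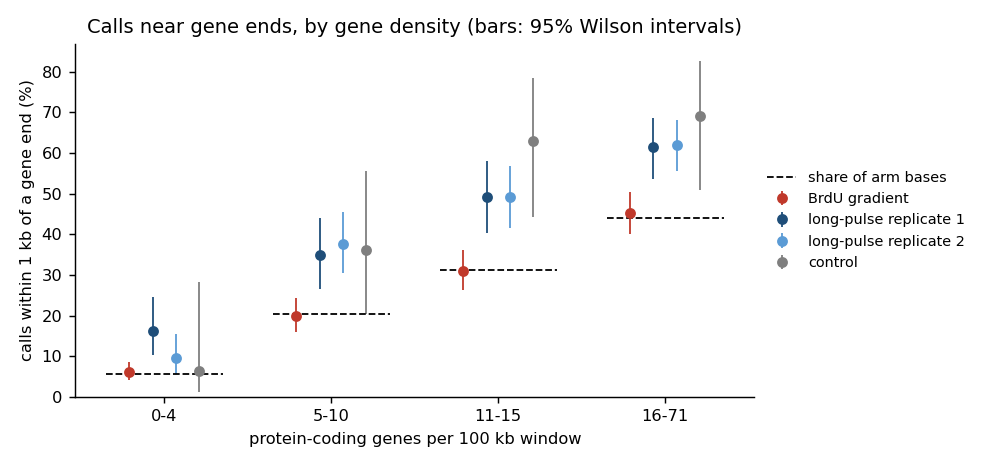
Share of origin calls in percent with a midpoint at most 1 kb from either end of a protein-coding gene span, by gene number of the 100 kb window, with 95% Wilson intervals and the share of arm bases as a dashed line. Gradient points lie on the dashed line in all 4 classes, and the long-pulse replicates lie above it, at 61.4 and 62.0% in the windows with most genes.

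Textbook gene groups were counted with 10 kb on either side. All counts are small and describe these libraries. The 24 replication factors covered 0.444% of arm bases and held 0.461% of gradient calls (7 calls, 0.223 to 0.948%), 0.619% of replicate 1 (3 calls) and 1.17% of replicate 2 (8 calls, 0.595 to 2.29%). Of these genes 6 had a gradient call and 10 a call of either replicate, while 20.2% and 25.2% of all 13922 protein-coding genes did with the same margins. The control had 1 call. Psf3, a subunit of the GINS complex of the helicase, had 2 gradient calls on 1 molecule, CycE, the cyclin of S phase entry, and Mcm10 had 1 each, and Orc2 had 1 in each of the 3 libraries. The 92 genes matched by name to ribosomal proteins covered 1.43% of bases and held 2.04% of gradient calls (31 calls, 1.44 to 2.88%), 2.89% of replicate 1 (14 calls) and 2.49% of replicate 2 (17 calls), with 2 calls in the control. RpL6 led with 5 gradient calls on 2 molecules.

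The 19 heterochromatic genes covered 2.52% of bases and held 2.70% of gradient calls (41 calls on 19 molecules, 2.00 to 3.64%), 2.68% of replicate 1 (13 calls), 1.76% of replicate 2 (12 calls) and 5.15% of the control (5 calls). One more gene, nAChRalpha6, had matched the list by a synonym and was left out after the data were seen, since it lies in the middle of 2L. Myo81F held 23 gradient calls on 10 molecules and 3 calls in each replicate, and Parp1, a poly-ADP-ribose polymerase, 7 gradient calls on 2 molecules and 1 and 0 long-pulse calls. The 25 long neuronal genes covered 2995 kb with their margins and held 1.58% of gradient calls (24 calls, 1.06 to 2.34%), 1.24% of replicate 1 (6 calls) and 1.17% of replicate 2 (8 calls), with 0 in the control. Ten-a, a teneurin adhesion gene, had 9 gradient calls on 3 molecules, and kirre, an adhesion gene of myoblasts, 3 on 2.

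The 8 Hox genes held 9 gradient calls, all at Ubx and on 3 molecules, or 0.592% of gradient calls (0.312 to 1.12%) in 0.373% of bases, and 2 calls in each replicate and in the control. Ubx is known as the homeotic gene of the third thoracic segment, and it had 1 call in replicate 1 and 0 in replicate 2. The 14 hemocyte and S2 genes covered 0.333% of bases and held 0.263% of gradient calls (4 calls, 0.102 to 0.675%). Of these calls, 3 lay at ush, a zinc finger cofactor of blood cell development. Replicates 1 and 2 had 2 and 1 calls in this group. The 9 chorion genes, which are amplified from defined origins in ovarian follicle cells, covered 0.0436% of bases. They held 1 gradient call (0.0658%), shared by Cp15, Cp16, Cp18 and Cp19 on 3L, and 0 in either replicate.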

How the data were processed

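The data were origin and fork calls made from Nanopore reads of genomic DNA from S2 cells. The authors deposited them as start and end coordinates in bp (other values, with no normalization). Per the file headers, the pulse libraries' forks and origins are output of forkSense in DNAscent (4.0.1 or 4.0.3). The submitters' processing notes name dm6 for all these libraries, and minimap2 2.24 with SAMtools 1.10 for the pulse libraries. For the gradient the file has no header, and its caller and filters are not given in the sources used. Read coordinates are not given in it either. Depth is therefore known only as calls per library, 485 to 1519.

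Computation used Python 3.11.15 with scipy 1.17.1, pandas 2.3.3, matplotlib 3.10.9 and numpy 2.4.6. A call was placed by its midpoint and printed counting from 1. The 10 mitochondrial gradient calls were left out. Windows of 100 kb and 1 Mb ran to the end of the last gene of an arm in a RefSeq gene table of Release 6 plus ISO1 MT, the release of dm6, with 13922 protein-coding genes. Samples were grouped by title. Tests were exact two-sided permutations over 3 libraries on the absolute difference of means. Counting was tested on simulated data, with calls placed singly at random and no minimum of calls per window. Calls moved to gene ends were recovered, but of windows given an excess of calls the 2-fold rule found only the largest excess in full, missed most of the smallest, and also called windows given none. Named regions followed a rule: windows with most calls, windows past the fold and the closest narrow calls, each given the gene around or nearest to its median midpoint, none on 2R. In gene lists up to 4 leading members were named, also none on 2R. Members, lists and rules were chosen with earlier results of these data known. Alternatives were molecules counted once, replicates left out, the control added, width, position, grid, fold and distance limits.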

Additional observations from a re-analysis of the deposited data

Results flagged for a closer look

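The gradient file held 10 origin calls on mitochondrial DNA, on 8 molecules. They lay outside the arms compared and entered no comparison, and the origin files of long-pulse replicates 1 and 2 and of the control held 0 such calls. No group compared here had enough libraries to test for one that stands apart.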

How the results depend on the processing

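No paired analysis was possible because the gradient has 1 library and shares no replicate pairing with the long-pulse libraries. Differences are gradient minus long pulses. Leaving out either long-pulse replicate gave -9.68 to -4.62 kb for the median width, 18.0 to 25.6 points for narrow calls, 0.277 to 4.68 points for X, -0.0394 to 0.0564 and 0.211 to 0.216 for the mean correlation at 100 kb and 1 Mb, 21 to 24 windows above and 12 to 15 below, -19.3 to -19.1 points near gene ends, -1.37 to -1.002 intergenic and 11.3 to 11.6 in gene-poor windows. The counts of windows rise there because 1 library must differ in place of 2, and the distance between libraries needs both. With the first call of each molecule narrow calls differed by 14.6 points, the 1 Mb correlation was 0.264, gene ends -19.5 and intergenic 0.470. Without zero-width calls the median width differed by -24.2 kb and narrow calls by 60.3 points, and without calls up to 10 bp, added after seeing the data, by -21.5 kb and 45.3 points. A narrow limit of 1 kb gave -4.75 points. With the control added the 1 Mb correlation was 0.193, gene ends -21.0, intergenic 0.817, gene-poor windows 12.7 and windows above 5. With calls up to 5 kb the 1 Mb correlation was 0.123, gene ends -18.5, intergenic -5.40, the distance share -4.64 and 2L -0.473 points. Long-pulse reads with a fork alone, which left out 45 of 683 calls of replicate 2 and 0 of replicate 1, gave a 1 Mb correlation of 0.199 and gene ends -19.0. Interval starts gave gene ends -11.0, intergenic 2.97, the distance share -3.80 and gene-poor windows 11.1. A moved grid gave a 1 Mb correlation of 0.174. Windows with a call alone gave -0.139 at 100 kb and 0.173 at 1 Mb. Folds of 1.5 and 3 called 18 and 5 windows above and 21 and 5 below, and a minimum of 20 calls 5 and 4. Gene end limits of 0.5 and 2 kb gave -14.6 and -23.5. The cause of these changes was not tested. Of 19 windows past 2-fold, 12 stayed past it with 1 call per molecule, 12 with the control added and 15 with calls up to 5 kb, and none turned direction under the 7 alternatives run. Leaving out either replicate could not undo a pass or turn a direction, since each window had passed against both. The gradient has 1 library, unknown read lengths and an unnamed caller, which limits every difference.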
